A study of Mus musculus with 2 samples.

Results

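Circadian clock and output genes were examined in injured kidneys of mice that lack estrogen sulfotransferase (EST, encoded by Sult1e1) and of wild-type mice. Members were the 10 genes Per1, Per2, Per3, Dbp, Tef, Nr1d1, Nr1d2, Cry1, Cry2 and Bhlhe40, taken as every probe set whose single gene symbol in the platform annotation was one of these names. They had 21 probe sets of 45101 on the array and stood for 10 of 18194 named genes. The EST KO AKI pool combined 124 mg of kidney from 6 EST KO mice, and the WT AKI pool combined 180 mg of kidney from 3 wild-type mice. All mice were male and 8 weeks old on a C57BL/6 background, and all had been through 30 min of warm ischemia of both kidneys with harvest 24 h later, so acute kidney injury (AKI) is common to both pools and no uninjured kidney is compared. Each pool was read on 1 array, so the spread between mice is unknown, no test between genotypes was possible and every difference below is a description of these 2 arrays. The clock time of surgery and harvest is not given in the sources used here, nor is how the EST allele was made. Whether both pools were harvested at the same hour is thus unknown, and a difference in hour could not be told apart from genotype.

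The circadian clock is a feedback loop of transcription in almost every cell. The activators CLOCK and BMAL1 (encoded by Arntl) bind E-box sequences and switch on the Per and Cry genes, whose proteins return to the nucleus and repress the activators. A second loop runs through the nuclear receptors REV-ERB alpha and beta (Nr1d1 and Nr1d2), which repress Arntl, and their competitors of the ROR family, which activate it. Dbp and Tef encode output factors that carry the rhythm to other genes through D-box sequences. In the kidney the clock is known to time salt and water transport along the tubule.

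To show the letters near the start of these genes, promoter windows of 300 bases (250 before the transcript start and 50 after it) were taken from RefSeq, build GRCm38.p6, which held 10 windows for 8 of the 10 members and none for Per2 or Bhlhe40. The windows printed here are those of the 3 genes with the largest differences between the pools (Dbp, Nr1d1 and Nr1d2) and, beside them, the first window of Per1 and that of Per3. They are written 5′ to 3′ on the gene's own strand. Capitals mark an E-box (CACGTG), its variant (CACGTT, or AACGTG when it lies on the other strand) or a D-box (TTATGTAA).
Dbp (chr7:45704997-45705296, + strand): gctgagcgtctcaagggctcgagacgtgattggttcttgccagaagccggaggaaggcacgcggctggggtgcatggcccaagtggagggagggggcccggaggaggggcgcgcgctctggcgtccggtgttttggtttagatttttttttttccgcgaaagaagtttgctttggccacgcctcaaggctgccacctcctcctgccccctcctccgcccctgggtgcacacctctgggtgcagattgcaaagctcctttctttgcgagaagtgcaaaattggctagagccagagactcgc
Nr1d1 (chr11:98775328-98775627, - strand): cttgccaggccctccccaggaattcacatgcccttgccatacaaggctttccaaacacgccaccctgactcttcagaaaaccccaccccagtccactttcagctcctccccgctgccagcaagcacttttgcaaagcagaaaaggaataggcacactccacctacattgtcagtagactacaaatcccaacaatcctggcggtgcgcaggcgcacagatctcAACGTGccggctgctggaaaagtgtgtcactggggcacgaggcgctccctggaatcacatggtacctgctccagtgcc
Nr1d2 (chr14:18239057-18239356, - strand): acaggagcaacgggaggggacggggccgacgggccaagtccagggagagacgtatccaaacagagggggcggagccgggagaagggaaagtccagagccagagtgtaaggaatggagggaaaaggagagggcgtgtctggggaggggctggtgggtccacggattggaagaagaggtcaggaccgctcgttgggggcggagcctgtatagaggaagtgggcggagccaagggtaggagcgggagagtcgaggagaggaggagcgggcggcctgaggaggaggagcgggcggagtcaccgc
Per1 (chr11:69098699-69098998, + strand): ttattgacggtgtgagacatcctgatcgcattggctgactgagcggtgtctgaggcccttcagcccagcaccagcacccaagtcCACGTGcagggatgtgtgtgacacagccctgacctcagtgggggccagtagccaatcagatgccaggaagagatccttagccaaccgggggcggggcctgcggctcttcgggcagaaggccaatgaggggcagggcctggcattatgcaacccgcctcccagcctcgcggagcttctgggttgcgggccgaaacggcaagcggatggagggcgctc
Per3 (chr4:151044616-151044915, - strand): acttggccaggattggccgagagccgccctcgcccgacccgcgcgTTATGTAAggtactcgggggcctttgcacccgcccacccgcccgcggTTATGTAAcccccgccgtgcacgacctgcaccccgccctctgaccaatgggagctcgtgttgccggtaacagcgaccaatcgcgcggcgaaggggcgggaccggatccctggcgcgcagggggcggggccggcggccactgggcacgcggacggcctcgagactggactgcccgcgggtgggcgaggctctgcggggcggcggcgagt

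Per3 held the D-box letters at 2 places, at positions −205 and −158 from the transcript start (the first base of each), and was the only one of the 10 member windows with them. Of all 32851 windows in the RefSeq table, 0.938% held that D-box on either strand. The E-box stood in 4 of the 10 member windows: both windows of Tef, the first window of Per1 and the window of Cry1. It stood in 7.15% of all windows. The E-box variant stood in the windows of Nr1d1, Cry1 and Cry2, against 4.68% of all windows, and in Nr1d1 it began at position −28. The windows of Dbp and Nr1d2 and the second window of Per1 held none of these letters. Neither the palindromic D-box (TTACGTAA, 0.119% of all windows), the ROR and REV-ERB core (TAGGTCA, 2.61%), the cAMP response element (TGACGTCA, 1.79%), nor the glucocorticoid response element (full palindrome, 0.00913%, or a looser form of it, 0.475%) was found in a member window. No motif match overlapped another, and a match is a run of letters, not a measured binding site.

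**Figure D1:**
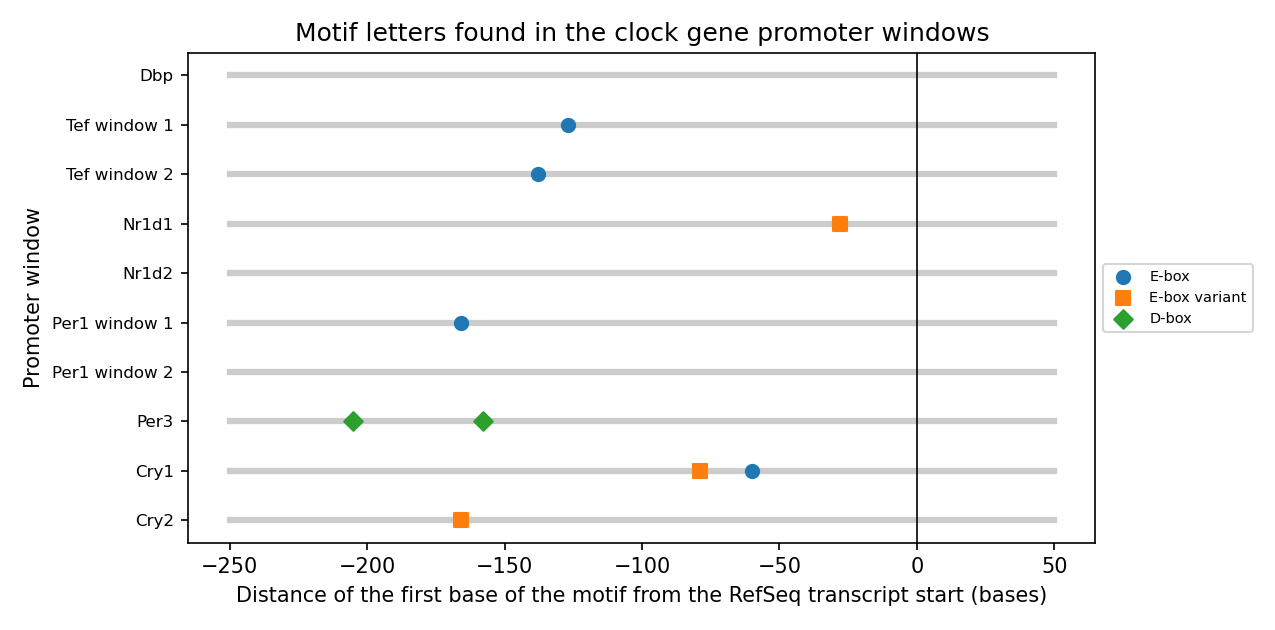
Motif letters in the 10 promoter windows of the members, one row per window; the horizontal axis is the distance in bases of the first base of the motif from the RefSeq transcript start (vertical line at 0), and each marker is 1 match on either strand. The D-box appears at 2 places in Per3 and the E-box in Tef, Per1 and Cry1, while Dbp and Nr1d2 have no marker.

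The values are the authors' deposited intensities on a linear scale, and a probe set was taken as above background when it exceeded a background level set per array from 129 probe sets of keratin-associated proteins and of smell, pheromone and taste receptors, families largely silent in kidney (their 95th percentile), which was 638.3 on the EST KO array and 676.1 on the WT array. The brightest probe set stands for a gene. A value below background was held at background, which turns the fold into a lower bound. By this measure 8 of the 10 members were above background in at least 1 pool and 7 in both. Nr1d1 passed through the EST KO pool alone, so its direction follows from having passed. Cry1 and Cry2 lay below background in both pools.

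The output factor Dbp and the REV-ERB genes had the largest differences, and all 3 had the higher value in EST KO kidneys, while the Per genes and Bhlhe40 differed little. Of the 8 members above background, 2 were at least 1.5-fold higher in the EST KO pool (Dbp and Nr1d1), where 8.62% of the 7346 genes with an ordered ratio were, and 0 were at least 1.5-fold lower, against 7.57% of those genes. None reached 2-fold with dim values held at background, where 3.08% of genes were higher by that much and 1.43% lower by that much. With a pseudocount equal to background, which shrinks the ratios of dim probe sets, Dbp fell under 1.5-fold (log2 0.49). Nr1d1 came to 0.61, but that value rests on a WT reading below background, so it does not make Nr1d1 the firmer of the 2. In any amount, 6 of the 8 were higher and 2 lower, against 44.4% and 55.6% of all genes. Their median log2 ratio, EST KO over WT, was 0.24, beside −0.06 for all 7346 genes. Without Nr1d1, of the 7 above background in both pools, 5 were higher and 2 lower, and their median was 0.16, beside −0.05 for the 6115 genes above background in both. Of those 6115 genes, 2738 were higher and 3377 lower. The members were chosen with earlier results of these arrays known, so these counts describe the list and are no test of it.

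**Figure D2:**
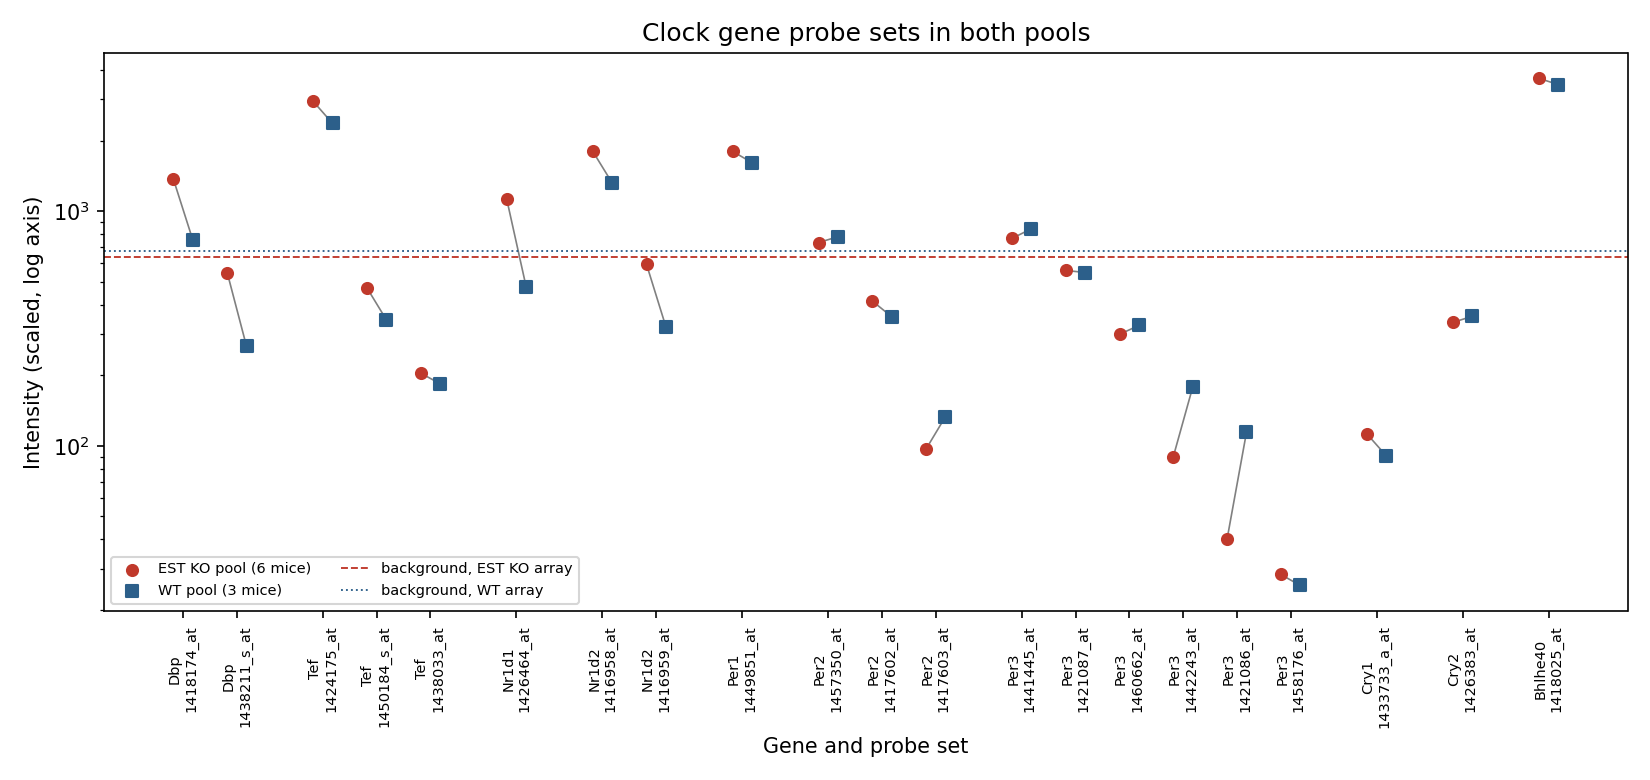
Intensity (log axis) of the 21 probe sets of the 10 members, with the EST KO pool (circles) left of the WT pool (squares) and a line joining the 2 values; horizontal lines are the backgrounds of 638.3 (EST KO, dashed) and 676.1 (WT, dotted). Of the 21, 14 sit higher in the EST KO pool, among them all those of Dbp, Tef, Nr1d1, Nr1d2, Per1, Cry1 and Bhlhe40. Nr1d1, Per1, Cry1 and Bhlhe40 have only 1 probe set each. In all, 13 of the 21 lie below background in both pools and give no order.

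Dbp encodes a transcription factor of the PAR bZIP family and is among the most strongly rhythmic genes of many tissues. Its brightest probe set read 1366.6 in the EST KO pool and 753.5 in the WT pool, 1.81-fold higher (log2 0.86). The WT value was just above background, and 314 of 7346 genes had a higher ratio. A second Dbp probe set read 547.3 in the EST KO pool and 265.3 in the WT pool, below background in both, so it gives no fold, though its values lay the same way round. Tef, a relative of Dbp in the same family, read 2935.6 in the EST KO pool and 2364 in the WT pool, 1.24-fold higher (log2 0.31). Its other probe sets were below background in both pools, at 470.9 and 203.9 in the EST KO pool and 344.6 and 184 in the WT pool.

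Nr1d1 encodes REV-ERB alpha, a heme-binding repressor of Arntl. It had 1 probe set, which read 1123.5 in the EST KO pool and 477.1 in the WT pool. The WT value lay at percentile 85.3 of the silent-family probe sets, below background, so Nr1d1 was at least 1.66-fold higher in the EST KO pool (log2 at least 0.73). With no floor its log2 ratio was 1.24. Nr1d2, which encodes REV-ERB beta, read 1798.6 in the EST KO pool and 1320.2 in the WT pool, 1.36-fold higher (log2 0.45). Both pools were above background at this probe set. The second Nr1d2 probe set read 593.6 in the EST KO pool and 321.9 in the WT pool, below background in both and again with the higher value in the EST KO pool.

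Per1, a repressor of the loop that is also induced by glucocorticoids and cAMP, read 1798.2 in the EST KO pool and 1611.2 in the WT pool, 1.12-fold higher (log2 0.16). Per2, the repressor closest to Per1 in function, read 734.8 in the EST KO pool and 777.6 in the WT pool at its brightest probe set. Its log2 ratio was −0.08 and turned to 0.02 when the intensity trend was removed. Neither gene stood apart from the bulk of genes: 2129 genes had a higher ratio than Per1 and 3866 a higher ratio than Per2. The other Per2 probe sets read 414 and 96.9 in the EST KO pool and 355 and 133 in the WT pool, all below background, with the difference in opposite directions. Per3, the least required Per gene for the rhythm in mice, read 765.6 in the EST KO pool and 841.5 in the WT pool at its brightest probe set, a log2 ratio of −0.14. Its 5 other probe sets were all below background and ran from 28.3 to 558.8 in the EST KO pool and from 25.4 to 547.6 in the WT pool. Over all 6 Per3 probe sets the deposited value was higher in the EST KO pool at 2 and lower at 4. The brightest probe sets of Per2 and Per3 stood barely above background, so their ratios say little about a modest difference.

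The cryptochromes, which pair with PER proteins and are the stronger repressors of CLOCK and BMAL1, could not be ordered. Cry1 read 112.4 in the EST KO pool and 90.7 in the WT pool, and Cry2 read 335.5 in the EST KO pool and 356.5 in the WT pool. These values lay between percentiles 33.3 and 76.7 of the silent-family probe sets. A low reading of this kind is a limit of the probe sets at this background and not evidence that the transcripts are absent. Bhlhe40 encodes DEC1, a repressor that competes for E-boxes and also responds to stress and hypoxia. It read 3680 in the EST KO pool and 3462.6 in the WT pool, 1.06-fold higher (log2 0.09), although quantile normalization turned the log2 ratio to −0.07. Bhlhe40 thus read well above background in both pools with little difference between them.

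**Figure D3:**
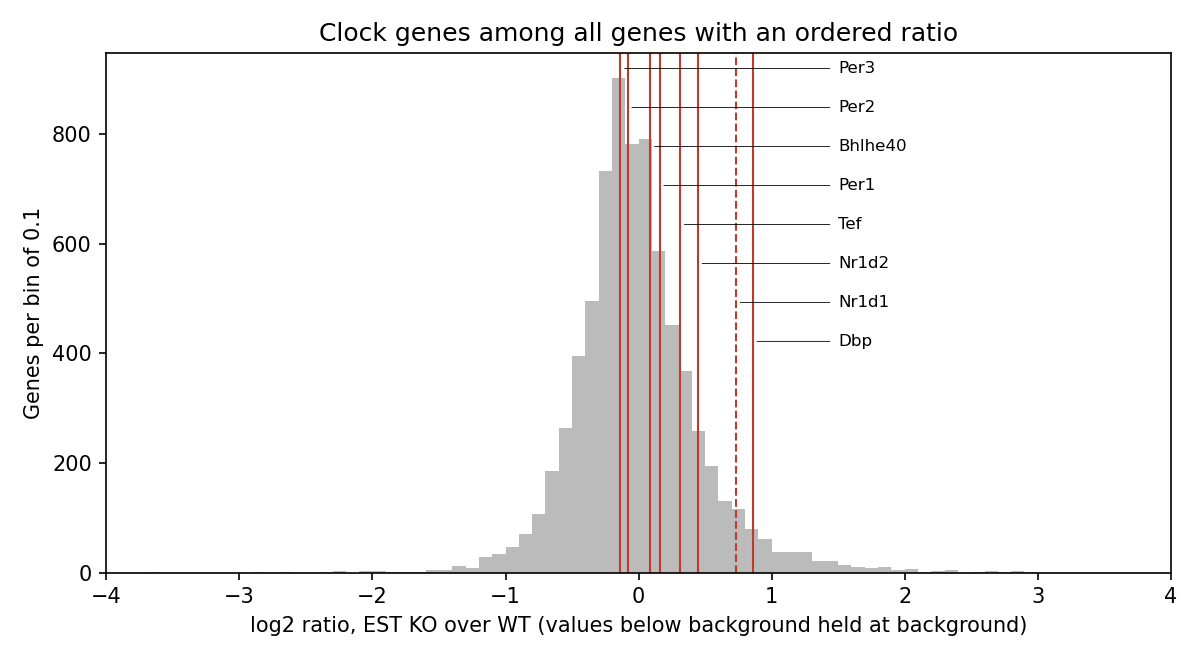
Histogram of log2 ratios (EST KO over WT) of the 7346 genes with an ordered ratio, in bins of 0.1, with a red line at each of the 8 members above background; the dashed line of Nr1d1 is a lower bound. Dbp (0.86) and Nr1d1 (at least 0.73) sit in the right tail, and Per2 (−0.08) and Per3 (−0.14) near the peak.

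The error that can be measured with 1 array per genotype is that between probe sets of 1 gene. In 1663 genes both pools exceeded background at 2 or more probe sets, and the log2 ratios of the 2 brightest differed with an SD of 0.39 and a median absolute difference of 0.21. For the 768 of them with both probe sets at a mean intensity under 2000, a limit chosen after seeing the data, the SD was also 0.39. The ratio of Dbp (0.86) was larger than this SD and that of Nr1d2 (0.45) only slightly larger. Those of Tef, Per1, Per2, Per3 and Bhlhe40 were smaller than it. This SD describes a difference between 2 ratios and is not the error of 1 ratio. A ratio smaller than it is thus not shown to lie within error. Nr1d1 cannot be set against this SD, since it was above background in the EST KO pool alone and its ratio is a bound. This error holds no variation between mice.

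Other genes of the clock were read for comparison from a list of 25, of which 22 had a probe set with a single symbol. Of these, 10 were above background in at least 1 pool, 8 higher and 2 lower in the EST KO pool, against 44.4% and 55.6% of all genes. Their median log2 ratio was 0.22 beside −0.06 for all genes. Hlf was ordered through the EST KO pool alone, and of the other 9, above background in both pools, 7 were higher and 2 lower. Among all 6115 genes above background in both pools, 2738 were higher. At least 1.5-fold higher were 2 of the 10, Rora and Usp2, against 8.62% of all genes, and 0 were at least 1.5-fold lower, against 7.57%. Rora, which encodes an activator that competes with the REV-ERB proteins, read 2466.4 in the EST KO pool and 1547.2 in the WT pool, 1.59-fold higher. Of its 3 probe sets above background in both pools, 2 were higher and 1 was lower (758.9 in the EST KO pool and 935.2 in the WT pool). Usp2, a rhythmic deubiquitinase named here after its values were seen, read 1701.9 in the EST KO pool and 1131.6 in the WT pool, a log2 ratio of 0.59, and its second probe set (1764 in the EST KO pool and 636 in the WT pool) was at least 2.61-fold higher. The WT value of that second probe set was below background, so its direction follows from having passed. Usp2 was just past the threshold of 1.5-fold (log2 0.58) at its brightest probe set.

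Hlf, the third PAR bZIP gene beside Dbp and Tef, read 950.8 in the EST KO pool and 585 in the WT pool, at least 1.41-fold higher. Its WT value was below background, so the direction of Hlf follows from having passed, and of this family Dbp and Tef alone had values above background in both pools. Arntl, the activator that REV-ERB proteins repress, read 849.4 in the EST KO pool and 762.4 in the WT pool, 1.11-fold higher. Its second probe set was below background in both pools, at 566.2 in the EST KO pool and 342.6 in the WT pool. Clock, Npas2, Nfil3, Ciart and Bhlhe41 were below background in both pools at their brightest probe sets, so neither the partner of Arntl nor these repressors and activators can be ordered. The kinases that mark PER proteins for degradation were above background: Csnk1e read 1633.6 in the EST KO pool and 1444.8 in the WT pool, 1.13-fold higher. Csnk1d had 5 probe sets above background in both pools that disagreed, 2 higher and 3 lower in the EST KO pool, with log2 ratios from −0.39 to 0.41.

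**Figure D4:**
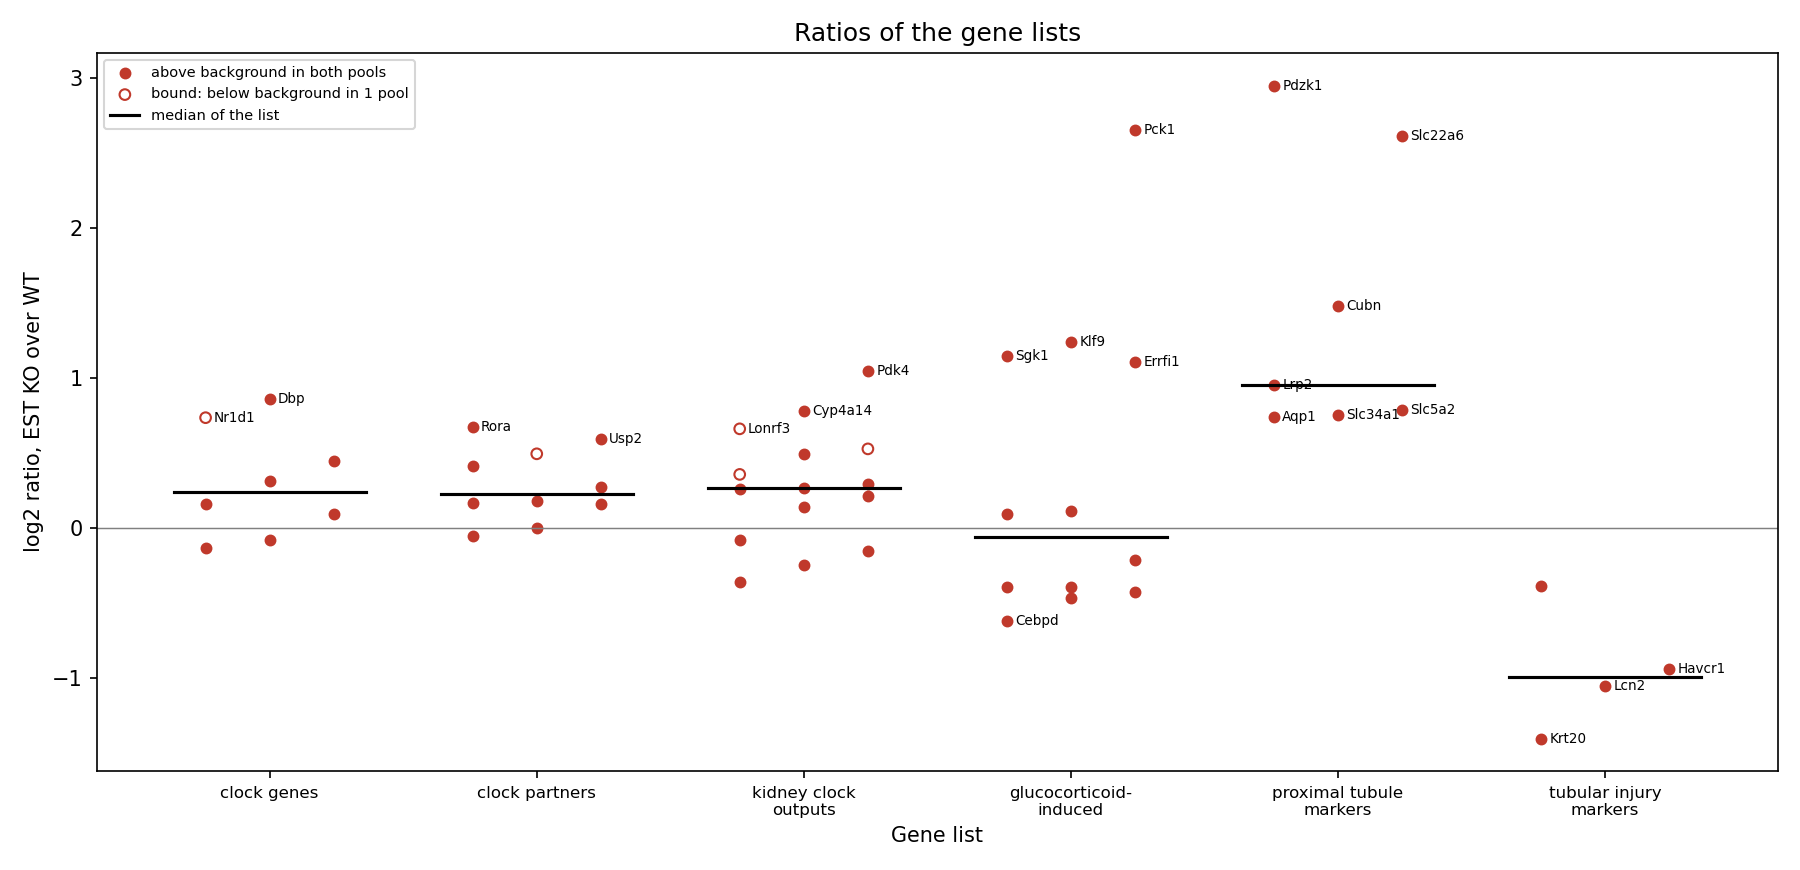
Log2 ratios (EST KO over WT) of the genes of 6 lists, 1 point per gene with an ordered ratio; open points are bounds, black bars are list medians, and genes past 1.5-fold are named. Clock genes, clock partners and kidney clock outputs have medians of 0.24, 0.22 and 0.27, below the proximal tubule markers (0.95) and above the tubular injury markers (−0.999).

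Genes known as clock outputs, several of them in kidney, were read from a further list. Of 22 read, 15 were above background in at least 1 pool, 11 higher and 4 lower in the EST KO pool (44.4% of all genes were higher), with a median log2 ratio of 0.27. Wee1, Klf10 and Lonrf3 passed through the EST KO pool alone, and of the 12 above background in both pools 8 were higher and 4 lower. Of all 6115 genes above background in both pools, 2738 were higher. At least 1.5-fold higher, against 8.62% of all genes, were 3: Pdk4, a brake on glucose oxidation (17128 in the EST KO pool and 8302 in the WT pool), Cyp4a14, a fatty acid hydroxylase (2829 in the EST KO pool and 1651 in the WT pool), and Lonrf3 (1067.1 in the EST KO pool and 642.5 in the WT pool, below background there). Wee1, a mitotic kinase switched on through E-boxes, read 972.7 in the EST KO pool and 431.6 in the WT pool, at least 1.44-fold higher. Atp1b1, a sodium pump subunit, exceeded WT by 1.40-fold at the brightest of its probe sets, with the other 3 above background from 1.57-fold to 1.89-fold higher, and Cldn4, a tight junction protein of the distal nephron, 1.28-fold lower.

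Glucocorticoid-induced genes, read because Per1 is also one of that class, had no common direction. Of 12 above background 6 were higher and 6 lower, against 44.4% and 55.6% of all genes, and their median log2 ratio was −0.06. The members with the largest ratios were Pck1, the entry enzyme of gluconeogenesis (log2 2.65), Klf9 (1.24), the kinase gene Sgk1 (1.14) and Errfi1 (1.11), against −0.62 for Cebpd and −0.47 for Zbtb16. Fkbp5 and Tsc22d3, among the most widely used readouts of the hormone, had log2 ratios of 0.11 and 0.09 at their brightest probe sets. A second Fkbp5 probe set above background in both pools had a log2 ratio of −0.04.

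The pools also differed in tubule and injury genes, and the part of these differences in the clock gene values was not tested. All 7 proximal tubule markers were at least 1.5-fold higher in the EST KO pool, against 8.62% of all genes. Their summed intensities were 64398 in the EST KO pool and 29173 in the WT pool. All 4 tubular injury markers read were lower, 3 of them by at least 1.5-fold, against 7.57% of all genes. Their sums were 46506 in the EST KO pool and 86222 in the WT pool. Of the loop and distal nephron markers 4 of 5 were higher (44.4% of all genes were), with sums of 36974 in the EST KO pool and 33772 in the WT pool. Umod, the lower one, dominated both sums, at 22735 in the EST KO pool and 25568 in the WT pool. The second Umod probe set had a log2 ratio of 0.05. Slc12a1 was 2.28-fold, Slc12a3 1.36-fold and Calb1 1.20-fold higher. Pvalb of this list passed through the EST KO pool alone, so its direction follows from having passed. All 5 myeloid markers were lower (5842 in the EST KO pool and 11209 in the WT pool), as were all 4 endothelial markers (4651 in the EST KO pool and 5717 in the WT pool) and 55.6% of all genes. Of the endothelial markers, Kdr was 1.48-fold lower (log2 −0.57), while Emcn and Cdh5 differed little (log2 −0.11 and −0.09). Of 3 ordered collecting duct markers 1 was higher and 2 lower (sums of all 4 read, 6540 in the EST KO pool and 8464 in the WT pool). The higher one, Aqp3 (log2 0.04), was 1.60-fold lower at its second probe set, also above background in both pools. Pecam1 of the endothelial list and Scnn1b of the collecting duct list passed through the WT pool alone, so their direction follows from having passed. No marker was at 0. In whole tissue, fewer cells of a type and less RNA per cell cannot be told apart. Sult1e1, the targeted gene, read 17.2 in the EST KO pool and 472.7 in the WT pool, below background in both, so it does not check the genotype label. One label field calls the EST KO tissue liver while others call it kidney: of 6 hepatocyte markers read, 4 were below background in both pools, among them Alb, serum albumin, at 522.3 in the EST KO pool and 487.9 in the WT pool. The other 2 were Cps1, a urea cycle enzyme, at 811.7 in the EST KO pool and 730.7 in the WT pool, and Apob, a lipoprotein component, at 475.1 in the EST KO pool (below background) and 778.6 in the WT pool. All 7 proximal tubule markers were above background in the EST KO pool, with the sum of 64398 given above, so that array read kidney tubule genes.

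**Figure D5:**
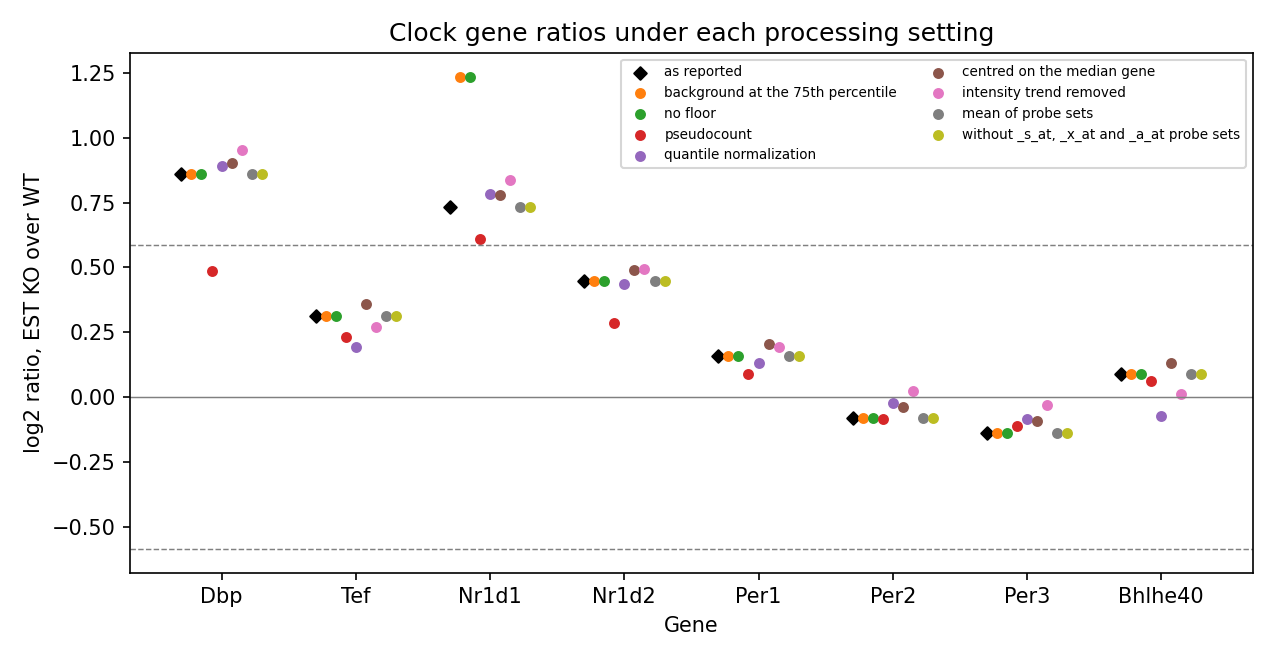
Log2 ratio (EST KO over WT) of each member under the reported setting (black diamond) and 8 alternatives (circles), with dashed lines at 1.5-fold. The last 2 alternatives in the legend could not move a member, since each has at most 1 probe set above background; Dbp, Tef, Nr1d1, Nr1d2 and Per1 lie above 0 throughout, and Per2 and Bhlhe40 change sign in 1 each.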

How the data were processed

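Total RNA (8 µg) of each pool was extracted with Trizol and labelled as biotinylated cRNA for an Affymetrix array, per the labels' protocols. The deposited values are intensities on a linear scale, 1 per probe set and array. From the values, each array had been scaled to a mean of 500.0 after the lowest and highest 2% were dropped; which software scanned, summarised and scaled them is not given in the sources used here. Array medians were 242.4 (EST KO) and 261.8 (WT), and no further scaling was applied. The platform annotation gave 34958 probe sets 1 symbol, 932 several and 9211 no symbol. Symbols were updated by Entrez ID against RefSeq (GRCm38.p6), which matched 34754.

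Each gene was read from its brightest probe set (highest mean of both arrays). Of 18194 genes, 7480 were above background in at least 1 pool, and 134 of these had no order because the only value above background lay between the 2 array backgrounds. Log2 ratios were EST KO minus WT. The number of arrays limits the precision. The steps were tested on simulated arrays. Tools were Python 3.11.15, numpy 2.4.6, pandas 2.3.3 and statsmodels 0.14.6.

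The members and gene lists were chosen with earlier results of these data known. Named are all members, the main clock partners and up to 6 genes with the largest absolute log2 ratio of each other list; Usp2, Klf10, Fkbp5, Tsc22d3 and the marker genes fall outside that rule and were picked with their values in view. Some genes of the comparison lists are not reported here. The 8 alternatives were another background percentile (75), no floor, a pseudocount, quantile normalization, centring on the median gene, removal of the intensity trend (loess, span 0.4), the mean of probe sets, and leaving out probe sets that can read several transcripts.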

Additional observations from a re-analysis of the deposited data

How the results depend on the processing

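No paired analysis was possible because each genotype has 1 array. The number of members at least 1.5-fold higher was 2 with the lower background, with no floor and under the 3 other scalings, and 1 with a pseudocount equal to the background: the log2 ratio of Dbp came to 0.49, under 1.5-fold, and that of Nr1d1 to 0.61. A pseudocount shrinks ratios of dim probe sets by construction, and the Nr1d1 value rests on a WT reading below background. The mean of probe sets, and leaving out probe sets that can read several transcripts, could not move any member, since each has at most 1 probe set above background. No member was at least 1.5-fold lower under the other 6 alternatives. Nr1d1 had a log2 ratio of 1.24 with background at the 75th percentile of the silent-family probe sets and with no floor, against a bound of 0.73. Tef ranged from 0.19 to 0.36, Nr1d2 from 0.29 to 0.49 and Per1 from 0.09 to 0.20. Per2 (−0.08 to 0.02) and Bhlhe40 (−0.07 to 0.13) changed sign, in 1 alternative each. Over all genes, those at least 1.5-fold lower numbered 556 as reported, 268 with a pseudocount and 1026 with the lower background. Signal over background limits Cry1, Cry2, Per2 and Per3. It also limits Dbp and Nr1d1, whose WT values were just above background (753.5) and below it (477.1).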

Other observations

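Klf9, a Krüppel-like factor known as both a glucocorticoid target and a clock output, read 10082 in the EST KO pool and 4283 in the WT pool at its brightest probe set, 2.35-fold higher. The 3 Klf9 probe sets with both values above background were 2.17-fold to 2.48-fold higher in the EST KO pool. Errfi1, an inhibitor of EGF receptor signalling, read 19863 in the EST KO pool and 9232 in the WT pool, with its second probe set in the same direction.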
